A study of Mus musculus with 6 samples.

Results

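The 10 genes followed here belong to the ATF4 branch of the integrated stress response and of serine and glycine synthesis: Atf4, Ddit3, Trib3, Chac1, Asns, Phgdh, Psat1, Psph, Shmt2 and Mthfd2. They were taken by name, as the rows of the deposited count table that carry these symbols, and the names were picked with earlier results of these data known. All 10 were found among the 14831 genes of the table, and all 10 were among the 14289 genes with enough counts to be tested. RNAseq was performed on 6 libraries of immortalized mouse pancreatic fibroblasts of mixed strain, each from its own well of confluent cells in DMEM with calf serum and antibiotics. The labels give the genotype WT to 3 libraries and Gli2-/-;Gli3-/- to the other 3, which are called KO here. Per the study's methods, fibroblast lines were grown out of the pancreas of adult mice and then immortalized. Control lines received a GFP adenovirus and a dsRed lentivirus, and deleted lines received the GFP adenovirus with an adenovirus that expresses Cre from a CMV promoter, and infected cells were sorted. How many lines or clones gave the 6 wells is not given in the sources used here. The p values measure only the spread between these wells, which may be technical.

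ATF4 is a transcription factor whose mRNA is translated more when kinases phosphorylate the initiation factor eIF2, as they do under amino acid shortage, endoplasmic reticulum stress or heme shortage. With C/EBP partners it binds composite elements at genes for amino acid synthesis, uptake and tRNA charging. Serine is made from a glycolytic intermediate by PHGDH, PSAT1 and PSPH in turn. In mitochondria, SHMT2 splits serine into glycine and a folate-bound carbon unit, which MTHFD2 oxidizes for nucleotide synthesis. In fibroblasts, these steps also provide the glycine that collagen needs in large amounts. Because ATF4 is controlled in large part at translation, counts on Atf4 measure its transcript and not its protein.

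The ATF4-C/EBP element was looked for in the promoters of the 10 genes, because these genes are described together as ATF4 targets. The element was written as TGATGNAA, on either strand, in the 250 bases before each RefSeq start on GRCm38.p6, and a promoter was held for 10 of the 10 genes. It was present before 2 of them, Chac1 and Asns, against 3.91% of the 27025 genes of the RefSeq promoter set and 2.44% of the 9996 tested genes that could be matched by symbol. Both stretches are shown on the strand of the gene, with the matching letters in capitals.
Chac1: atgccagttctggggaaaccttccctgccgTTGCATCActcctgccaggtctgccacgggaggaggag
Asns: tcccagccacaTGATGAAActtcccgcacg
The Chac1 stretch lies on the plus strand at chr2:119351019-119351086. Its match, 186 to 193 bases before the RefSeq start, is the reverse complement of the strict form TGATGCAA, which 0.918% of genes hold. The Asns stretch lies on the minus strand at chr6:7693214-7693243, with its match 16 to 23 bases before the RefSeq start. In GENCODE M21 the outermost Asns start is at 7693254, so that the same bases are exonic there. For Trib3, alone among the 10 genes, the bases at the RefSeq start were not found in a GENCODE transcript. The place of its window is therefore less certain. The GLI element GACCACCCA, searched on either strand in the same windows, was found before 0 of the 10 genes and before 0.255% of all genes. A match is a description of letters in a short window and not a binding site, and the absence of one says nothing about the factor.

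The deleted genes were read first. Gli2 was at 25.8, 28.2 and 27.2 CPM (counts scaled by library size, as edgeR's counts per 1e6 after TMM scaling) in the 3 WT-labelled wells and at 54.6, 55.6 and 58.3 CPM in the KO-labelled wells. Gli3 was at 12.5, 12.4 and 12.5 CPM and at 40.5, 39.3 and 42.5 CPM. Both were therefore higher where the labels say they were deleted, and every direction given here follows the labels. The counts are of whole genes, so a transcript that lacks the deleted exons would still be counted, and they do not show whether the deletion took place. Per the study's methods, recombination in such lines was screened by qPCR and western blot. The paper reports that these assays bore out the Gli deletion. It also reports that its Gli2/Gli3 KO fibroblasts did not respond to stimulation of the Hedgehog pathway. The libraries held 31728420 to 41035931 counts on genes. No pair of wells within a group agreed within sampling noise (the chi-square statistic ran from 2.50 to 7.74 times its degrees of freedom), and each well was used as 1 replicate. Fold changes are KO-labelled over WT-labelled wells. A gene is called at an adjusted p under 0.05 in edgeR's quasi-likelihood test and a change of at least 1.5-fold.

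All 10 genes were higher in the KO-labelled wells, and 5 of them were called: Trib3, Chac1, Mthfd2, Asns and Shmt2. The other 5, Atf4, Ddit3, Phgdh, Psat1 and Psph, had an adjusted p under 0.05 with a change under 1.5-fold. Of all genes tested, 17.7% were called, 11.6% higher and 6.1% lower. At an adjusted p under 0.05 without a fold limit all 10 passed upward, against 29.9% of all genes upward, 28.8% downward and 58.7% in either direction. In each of the 10 the lowest KO-labelled well lay above the highest WT-labelled well, which held for 32.9% of all genes, while 64.2% had groups that did not overlap in either direction. The median log2 fold change of the 10 was 0.50, and that of all genes tested was 0.00197.

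**Figure D1:**
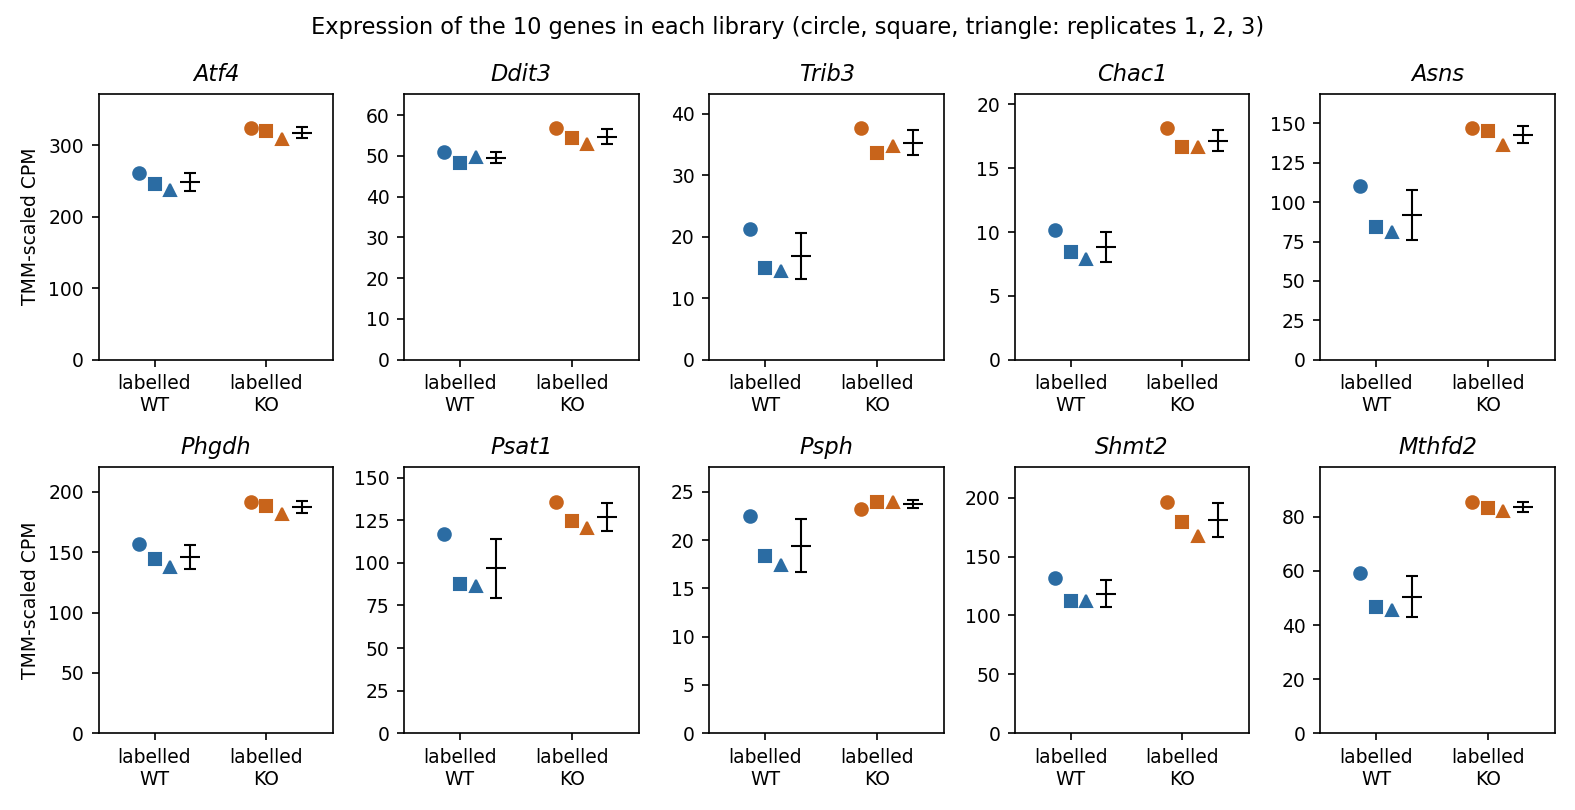
Expression of each gene (CPM after TMM scaling, linear axes from 0) in the 3 WT-labelled (blue) and 3 KO-labelled (orange) libraries. Circles, squares and triangles are replicates 1, 2 and 3, and black bars give the group mean ± SD (n = 3). In all 10 genes the KO-labelled libraries lie above the WT-labelled ones, with a narrow gap in Psph, where WT-labelled replicate 1 (22.6 CPM) is just under KO-labelled replicate 1 (23.3 CPM).

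Among the stress genes, the transcription factor genes differed by less than 1.5-fold and 2 genes known to lie downstream of them differed most. Atf4 (chromosome 15, 80255184 to 80257541) was at 261.8, 246.4 and 237.5 CPM in the WT-labelled wells and at 324.1, 320.7 and 309.3 CPM in the KO-labelled wells. The groups did not overlap, and the means differed by more than either SD (248.6 ± 12.3 and 318.0 ± 7.77 CPM, n = 3 each). Its log2 fold change was 0.36 (1.28-fold, standard error, SE, 0.04, adjusted p = 3.80e-06), below the fold limit. Ddit3 (chromosome 10, 127290774 to 127296288), which encodes CHOP, a C/EBP-related factor linked to cell death under prolonged stress, was at 50.9, 48.2 and 49.6 CPM and at 56.8, 54.4 and 53.0 CPM. The gap between the highest WT-labelled and the lowest KO-labelled well was small. The log2 fold change of Ddit3 was 0.14 (1.10-fold, SE 0.04, adjusted p = 0.00729). Its exons share 10.9% of their bases with other gene models. Of the shared bases, 105 lie in another model named Ddit3 on the same strand and 68 in Mars on the opposite strand. Whether counting used strand is not given in the sources used here.

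Trib3 (chromosome 2, 152337422 to 152344032), which encodes a pseudokinase that binds AKT and ATF4, was at 21.2, 14.9 and 14.4 CPM in the WT-labelled wells and at 37.6, 33.6 and 34.7 CPM in the KO-labelled wells. It was higher in every KO-labelled well by more than the spread, although WT-labelled replicate 1 stood above the other two. Its log2 fold change of 1.07 (2.10-fold, SE 0.11, adjusted p = 2.77e-06) was the highest of the 10. Chac1 (chromosome 2, 119351229 to 119354381), whose product breaks down glutathione and whose promoter stretch is shown above, was at 10.2, 8.45 and 7.86 CPM and at 18.1, 16.7 and 16.7 CPM. Here too the groups stood well apart, with a log2 fold change of 0.96 (1.94-fold, SE 0.09, adjusted p = 8.23e-07). Its paralog Chac2 was at 4.42 ± 0.532 and 5.04 ± 0.268 CPM (SD, n = 3 each), and its groups overlapped (log2 fold change 0.18, 95% interval -0.03 to 0.39, adjusted p = 0.162).

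The ratio of each transcript to Atf4 within a library describes the same contrast. Trib3 stood at 0.0810, 0.0606 and 0.0608 of the Atf4 CPM in the WT-labelled wells and at 0.116, 0.105 and 0.112 in the KO-labelled wells. Ddit3 went the other way, with 0.194, 0.196 and 0.209 against 0.175, 0.170 and 0.171. Relative to Atf4, Trib3 was thus higher and Ddit3 lower in each KO-labelled well than in any WT-labelled well. Phgdh kept nearly the same ratio in all 6 libraries, from 0.578 to 0.600.

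Asns (chromosome 6, 7675169 to 7693254), which encodes the enzyme that makes asparagine from aspartate and glutamine, was at 110.1, 84.0 and 81.0 CPM in the WT-labelled wells and at 147.0, 145.5 and 136.5 CPM in the KO-labelled wells. The KO-labelled wells were all higher, and WT-labelled replicate 1 lay between the other WT-labelled wells and the KO-labelled group. The log2 fold change of Asns was 0.64 (1.56-fold, SE 0.09, adjusted p = 3.44e-05). It sits close to the fold limit: without WT-labelled replicate 2 it was 0.58 and without WT-labelled replicate 3 it was 0.56, both under 1.5-fold, and without WT-labelled replicate 1 it was 0.79.

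The 3 enzymes of serine synthesis were higher by similar and modest amounts, and none of them was called. Phgdh (chromosome 3, 98313170 to 98339990), the enzyme of the committed step, was at 157.1, 144.5 and 137.4 CPM in the WT-labelled wells and at 191.9, 188.7 and 181.9 CPM in the KO-labelled wells. The wells of a group were close together and the groups apart, with a log2 fold change of 0.36 (1.28-fold, SE 0.04, adjusted p = 1.66e-05). Psat1 (chromosome 19, 15904678 to 15947337), the transaminase of the middle step, was at 116.9, 87.5 and 86.3 CPM and at 136.0, 124.6 and 120.3 CPM. WT-labelled replicate 1 was near the lowest KO-labelled well, and the log2 fold change of 0.39 (1.31-fold, SE 0.09, adjusted p = 0.00269) became 0.55 without that replicate. Psph (chromosome 5, 129765558 to 129787449), the phosphatase that releases serine, was at 22.6, 18.4 and 17.4 CPM and at 23.3, 23.9 and 24.0 CPM. Its groups nearly touched, and its log2 fold change was 0.29 (1.22-fold, SE 0.08, adjusted p = 0.00664), or 0.41 without WT-labelled replicate 1. Part of the Psph exons (10.4% of their bases) overlaps Cct6a on the opposite strand.

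Both mitochondrial enzymes that take serine onward were called. Shmt2 (chromosome 10, 127517123 to 127522444) was at 131.4, 112.0 and 112.3 CPM in the WT-labelled wells and at 196.6, 179.4 and 167.2 CPM in the KO-labelled wells. The 3 KO-labelled wells were higher by more than the spread of either group, and the log2 fold change was 0.61 (1.53-fold, SE 0.06, adjusted p = 4.27e-06). Like that of Asns, the call of Shmt2 rests on the fold limit, since the value was 0.57 without WT-labelled replicate 2, 0.57 without WT-labelled replicate 3 and 0.54 without KO-labelled replicate 1. Mthfd2 (chromosome 6, 83305691 to 83325908) was at 59.1, 46.8 and 45.4 CPM and at 85.6, 83.4 and 82.1 CPM. Its KO-labelled wells differed little from each other, and the log2 fold change of 0.73 (1.66-fold, SE 0.07, adjusted p = 3.06e-06) stayed between 0.66 and 0.86 with any 1 library left out.

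Along the route from serine to one-carbon units, the log2 fold changes were thus 0.36, 0.39 and 0.29 at the synthesis steps and 0.61 and 0.73 at the mitochondrial steps. In the order of the fold changes, Chac1 exceeded the next gene, Mthfd2, by 0.23 on the log2 scale (standard error of that difference, with the 2 genes taken as independent, 0.11), and Shmt2 exceeded the next gene, Psat1, by 0.22 (standard error 0.11). Every other pair of neighbours in that order had a 95% interval of their difference that included 0. Pairs further apart in the order were not compared.

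**Figure D2:**
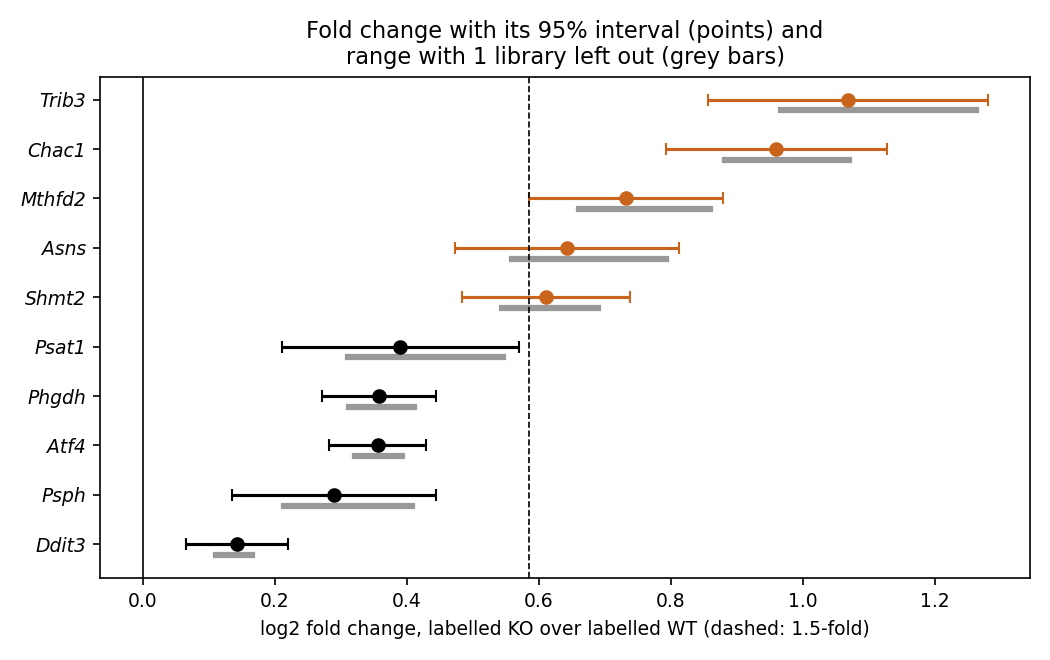
Log2 fold change of each gene, KO-labelled over WT-labelled, with its 95% interval (bars). Orange points were called and black points were not, grey bars span the values with 1 library left out in turn, and the dashed line marks 1.5-fold. All 10 intervals lie above 0, and the grey bars of Asns (0.56 to 0.79) and Shmt2 (0.54 to 0.69) cross the 1.5-fold line.

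Levels of different genes were compared per kilobase of annotated exon (RPKM, the CPM divided by the exon length in kilobases). Atf4 was the most abundant of the 10, at 105.4 ± 5.22 RPKM in the WT-labelled and 134.9 ± 3.29 RPKM in the KO-labelled wells (SD, n = 3 each). Phgdh followed with 58.9 ± 4.02 and 75.4 ± 2.06 RPKM, then Shmt2 with 38.1 ± 3.58 and 58.2 ± 4.75 RPKM and Asns with 33.5 ± 5.84 and 52.3 ± 2.08 RPKM. The order then ran through Ddit3, Psat1, Mthfd2, Trib3 and Chac1 to Psph, the lowest, at 4.49 ± 0.635 and 5.48 ± 0.0934 RPKM. The order was the same in both groups. Neighbours in that order overlapped between wells for Shmt2 and Asns, Asns and Ddit3, and Chac1 and Psph in the WT-labelled group, and for Ddit3 and Psat1 in the KO-labelled group. The 2 genes with the largest fold changes, Trib3 and Chac1, are thus among the 3 least abundant of the 10.

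Within the WT-labelled group, 1 well stood above the others for these genes. WT-labelled replicate 1 was the highest of its group in 10 of the 10 genes, where it was the highest in 38.1% of the 13373 tested genes that have a symbol and a count above 0 in every library. Its median deviation from the group mean was 0.22 on the log2 scale over the 10 genes, with a range from 0.04 for Ddit3 to 0.35 for Trib3, and 0.00242 over the 13373 genes. After Trib3, the largest deviations in this well were those of Psat1 (0.29) and Asns (0.28). In the KO-labelled group the wells were closer. There, replicate 1 was the highest in 9 of the 10 genes, against 35.0% of the 13373 genes, with a median deviation of 0.05 over the 10. Without WT-labelled replicate 1, 5 of the 10 genes were called, beside 2618 of all 14531 genes tested in that setting. The median log2 fold change of all 10 was then 0.62.

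**Figure D3:**
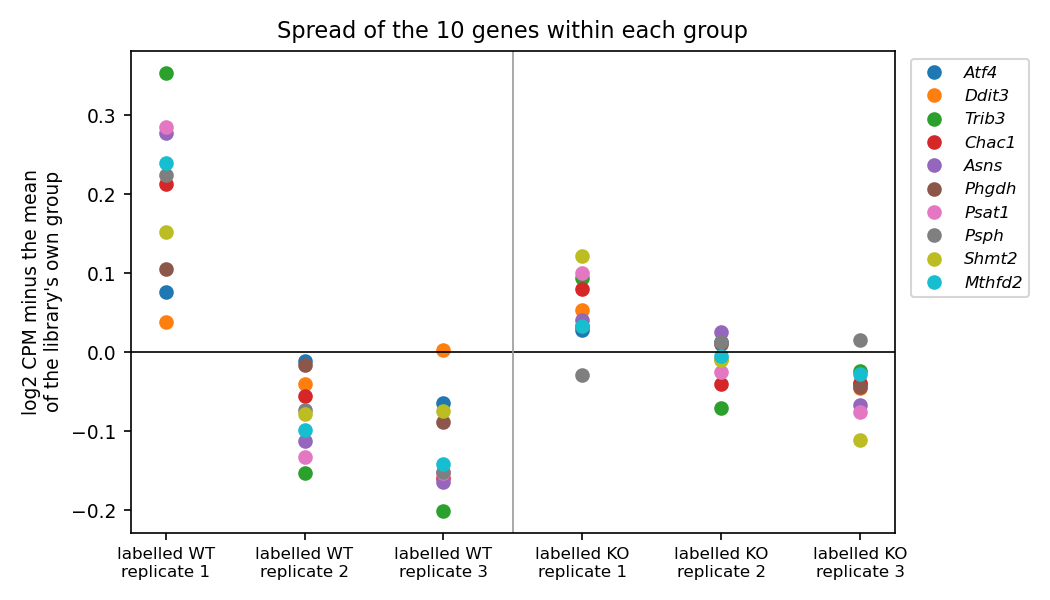
Deviation of each of the 10 genes from the mean log2 CPM of its own group, by library. All 10 points of WT-labelled replicate 1 are above 0, between 0.04 and 0.35, while those of the KO-labelled libraries lie between -0.11 and 0.12.

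Other genes known as ATF4 targets were read from a list of 31, of which 30 were tested. Of these, 10 were called, 9 higher and 1 lower, which is 33.3% against 17.7% of all genes, and the median log2 fold change was 0.21. Stc2, which encodes the secreted glycoprotein stanniocalcin 2, was at 0.638, 0.896 and 0.752 CPM in the WT-labelled wells and at 2.82, 2.90 and 2.54 CPM in the KO-labelled wells (log2 fold change 1.85, SE 0.17, adjusted p = 1.08e-06). Vldlr, a lipoprotein receptor gene, was at 9.90 ± 0.442 and 31.2 ± 0.723 CPM (SD, n = 3 each), which is 1.65 higher on the log2 scale (SE 0.05, adjusted p = 5.95e-11). The cystine transporter gene Slc7a11 was at 2.71, 1.73 and 1.94 CPM and at 6.13, 5.30 and 6.39 CPM (log2 fold change 1.48, SE 0.15, adjusted p = 2.63e-06). These 3 genes rose 2.79-fold to 3.61-fold, more than any of the 10 genes described above. The gene called lower was Gdf15, a stress-induced cytokine gene with 17, 25 and 16 counts in the WT-labelled and 7, 15 and 5 counts in the KO-labelled wells (log2 fold change -1.28, SE 0.35, adjusted p = 0.00663).

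The other 6 target genes called higher were named after their values were seen. They encode the mitochondrial folate enzyme ALDH1L2 (log2 fold change 1.21), the amino acid transporters SLC7A5 (1.11), SLC1A5 (1.07) and SLC7A1 (0.63), the proline synthesis enzyme PYCR1 (0.87) and the cysteine synthesis enzyme CTH (0.87). Slc7a5, the large neutral amino acid transporter gene, was at 84.4, 65.1 and 60.0 CPM in the WT-labelled wells and at 159.3, 148.3 and 143.4 CPM in the KO-labelled wells, so that WT-labelled replicate 1 was again the highest of its group. Among the listed genes that were not called, Atf3 was at 2.89 ± 0.816 and 2.62 ± 0.182 CPM, and Sesn2 at 47.6 ± 1.78 and 46.9 ± 1.97 CPM (SD, n = 3 each). Without the fold limit, 22 of the 30 had an adjusted p under 0.05, against 58.7% of all genes. Of these, 19 were higher (29.9% of all genes) and 3 lower (28.8%). Uncalled genes among them included Atf5 (log2 fold change 0.52), Slc1a4 (0.47), Pck2 (0.45) and Cebpg (0.42) upward. The uncalled genes downward were Ddit4 (-0.34) and Jdp2 (-0.19). All these uncalled genes were named after their values were seen.

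Of 26 further genes of folate and methionine metabolism, all tested, 5 were called, 4 higher and 1 lower. That is 19.2%, near the 17.7% of all genes, and the median log2 fold change was 0.12. The largest change upward was that of Gldc, the glycine decarboxylase gene, with 18, 10 and 5 counts in the WT-labelled and 62, 48 and 45 counts in the KO-labelled wells (log2 fold change 2.04, SE 0.33, adjusted p = 1.68e-04). The cytosolic enzyme gene Mthfd1 (55.9 ± 1.99 and 84.8 ± 1.66 CPM, log2 fold change 0.60) and the mitochondrial Mthfd1l (30.3 ± 5.04 and 45.9 ± 4.41 CPM, 0.60) were called just past the limit. Shmt1, the cytosolic counterpart of Shmt2, was at 4.43 ± 0.247 and 6.57 ± 0.130 CPM, with a log2 fold change of 0.57 (adjusted p = 1.08e-04) just under it.

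Genes of the mitochondrial folate route did not all lie on the same side. Mthfd2l, the close paralog of Mthfd2, was at 17.9, 20.3 and 19.2 CPM in the WT-labelled wells and at 15.6, 15.3 and 14.8 CPM in the KO-labelled wells. It was lower in every KO-labelled well, with a log2 fold change of -0.33 (SE 0.06, adjusted p = 3.76e-04), while Mthfd2 was higher. Slc25a32, which encodes the mitochondrial folate carrier, was at 122.9, 126.8 and 135.1 CPM and at 59.0, 57.9 and 57.3 CPM. It fell by 1.14 on the log2 scale (SE 0.04, adjusted p = 9.37e-11) and was the gene of this list called lower. Sfxn1, the mitochondrial serine carrier gene, named after its values were seen, was at 90.5 ± 1.45 and 72.0 ± 1.89 CPM (SD, n = 3 each; log2 fold change -0.33, adjusted p = 2.96e-06), under the fold limit.

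Upstream of ATF4, a list of 17 genes was tested in full. It holds the genes for eIF2, its kinases, its exchange factor eIF2B and its phosphatase subunits, together with Eif2a, Gcn1 and Impact. Of the 17, 0 were called by edgeR, DESeq2 or limma-voom, where edgeR called 17.7% of all genes. At an unadjusted p under 0.05 without a fold limit 13 differed, and at an adjusted p under 0.05 there were 12 (against 58.7% of all genes), of which 10 were lower (28.8% of all genes) and 2 higher (29.9%) in the KO-labelled wells. The median log2 fold change of the 17 was -0.24. The list mixes kinases with phosphatase subunits, which act on eIF2 in opposite ways, so this median has no single reading. The largest change of the 17 was that of the eIF2 subunit gene Eif2s3x (-0.54). Other lower genes included the eIF2B gene Eif2b4 (-0.37), Impact (-0.34) and the phosphatase subunit gene Ppp1r15b (-0.30), while Ppp1r15a was higher (0.15). These were named after their values were seen. Of the 4 kinase genes, Eif2ak3, which encodes the endoplasmic reticulum sensor PERK, was higher, at 47.7, 44.9 and 45.4 CPM against 57.5, 50.8 and 57.2 CPM (log2 fold change 0.26, SE 0.05, adjusted p = 6.53e-04). The other 3 kinase genes were lower. The log2 fold change was -0.34 for the heme-regulated kinase gene Eif2ak1, -0.39 for the RNA-activated kinase gene Eif2ak2 and -0.15 for Eif2ak4, which encodes the amino acid sensor GCN2. These are differences in transcripts, and the phosphorylation that controls the kinases and eIF2 was not measured.

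The 20 genes for cytosolic tRNA synthetases, which charge tRNAs with amino acids and include known ATF4 targets, were all tested. None was called by edgeR, DESeq2 or limma-voom (0 of 20), where edgeR called 17.7% of all genes. Of the 20, 14 had an unadjusted p under 0.05 and 14 an adjusted p under 0.05, of which 10 were higher and 4 lower. At that adjusted p 58.7% of all genes passed, 29.9% higher. The log2 fold changes of the 20 ran from -0.34 to 0.40 with a median of 0.09. Likewise, 0 of 19 tested genes of the XBP1 and ATF6 arms of the unfolded protein response were called by any of the 3 tools, beside the same 17.7%. Of the 19, 13 had an unadjusted p under 0.05 and 13 an adjusted p under 0.05, of which 10 were higher and 3 lower. The shares of all genes at that adjusted p were the same 58.7%, and 29.9% higher. The log2 fold changes of the 19 ran from -0.36 to 0.48, and their median was 0.09. The chaperone gene Hspa5, the usual marker of these arms and named after its values were seen, was at 584.0 ± 25.5 and 602.6 ± 11.4 CPM (SD, n = 3 each, adjusted p = 0.275). Herpud1 (log2 fold change 0.48) was the highest of the 19 and Atf6b (-0.36) the lowest, and Xbp1 was at 0.29. They too were named after their values were seen.

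**Figure D4:**
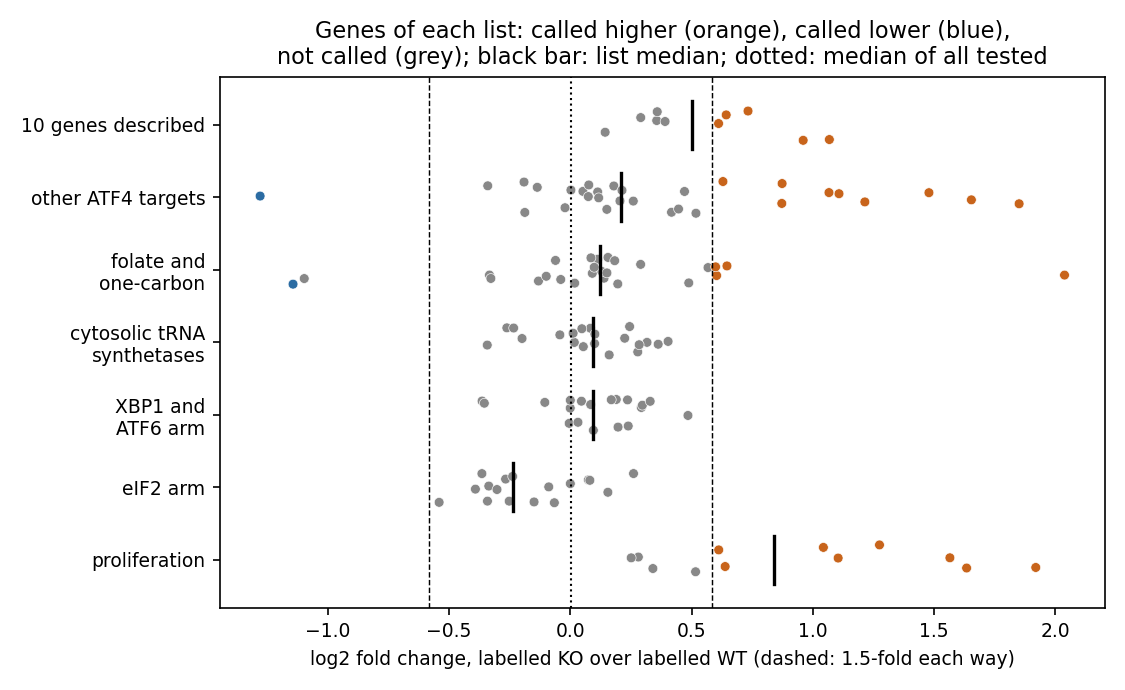
Log2 fold change, KO-labelled over WT-labelled, of each tested gene of the lists (1 point per gene, vertical position within a row arbitrary). Orange genes were called higher, blue lower and grey not called, black bars are list medians and the dotted line is the median of all genes tested. The medians are 0.50 for the 10 genes described, 0.21 for other ATF4 targets, 0.12 for folate and one-carbon genes, 0.09 for tRNA synthetases, 0.09 for the XBP1 and ATF6 arm, -0.24 for the eIF2 arm and 0.84 for proliferation genes.

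Markers of dividing cells moved with these genes. Of 12 proliferation genes, 12 had an adjusted p under 0.05 upward (29.9% of all genes) and 8 were called higher (11.6% of all genes), with a median log2 fold change of 0.84. Their summed level was 440.3 to 521.5 CPM in the WT-labelled and 765.2 to 878.2 CPM in the KO-labelled wells. WT-labelled replicate 1 was the highest of its group here as well. Genes of nucleotide synthesis and of one-carbon metabolism are known to be used by dividing cells, and the part of proliferation in the results above was not tested.

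The labelled cell type was checked against markers. Of 10 fibroblast markers, 8 were found by symbol in the deposited counts. Their summed level was 44822 to 47236 CPM in the WT-labelled and 36783 to 38533 CPM in the KO-labelled wells. Vim, at 4285 and 3912 CPM, and Col1a1, at 15982 and 16113 CPM, were abundant in both groups. Col3a1, Pdgfra, Pdgfrb and Dcn were called lower in the KO-labelled wells, which is 4 of 7 tested markers against 6.1% of all genes. Thy1, which was not tested, was at 0.0525 and 0.390 CPM. Epithelial markers (2 of 6 found, Krt8 and Cdh1) summed to 0.345 to 0.418 CPM and to 0.939 to 1.01 CPM. Cdh1 was called higher (log2 fold change 1.08) and Krt8 was not tested. The acinar marker Cela1 (1 of 6 found) was at 7.36 to 8.84 CPM and at 13.6 to 15.4 CPM. It was called higher (log2 fold change 0.87), as were 11.6% of all genes. Macrophage markers (3 of 6 found, 0 called), of which Lyz2 made up most, summed to 39.5 to 45.5 CPM and to 38.4 to 40.1 CPM. The part of these levels in the results above was not tested, and in bulk RNA a change in the share of a cell type and a change in RNA per cell cannot be told apart.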

How the data were processed

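RNAseq libraries of polyadenylated RNA from 3 WT-labelled and 3 KO-labelled wells were analysed from 2 tables. The authors deposited a table of raw counts per gene and a table of log2 CPM, which limma's voom made. The submitters' processing notes name STAR 2.7.2b, featureCounts, limma and GRCm38.p6, and the strand setting is not given in the sources used here. Differences in counts were computed by edgeR 4.0.16 (R 4.3.3) with TMM scaling and filterByExpr (quasi-likelihood F test, group as the only term), with Benjamini-Hochberg adjustment over all 14289 genes tested. Each gene was called at an adjusted p under 0.05 and 1.5-fold. Standard errors were taken from the log2 fold change and its F statistic. The script was tested on simulated data. With 3 against 3 libraries, an exact permutation test cannot give a two-sided p under 0.1. Positions and exon lengths are from GENCODE M21 (GRCm38), matched by identifier without version for 14822 of 14831 genes, and promoters are from RefSeq.

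The 10 genes, the lists (other ATF4 targets, folate one-carbon, cytosolic tRNA synthetases, XBP1 and ATF6 arm, eIF2 arm, proliferation and cell type markers) and the rule for named genes were chosen with earlier results of these data known. Named were the 10 genes, Gli2 and Gli3, up to 3 called genes in each direction from each pathway list, paralogs (Mthfd2l, Shmt1, Mthfd1, Mthfd1l, Chac2), the 4 eIF2 kinases and the 3 genes nearest in profile to Atf4 and to Trib3. A gene that this rule names is not reported here. Groups came from the genotype label. As alternatives, the analysis was repeated with DESeq2 1.42.0, with limma 3.58.1 (voom, or the deposited log2 values), with 3 other scalings (RLE, upper quartile, totals), without a count filter or with at least 10 counts in every library, with no fold limit or a 2-fold limit, and with each library left out.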

Additional observations from a re-analysis of the deposited data

How the results depend on the processing

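All 10 genes were higher in the KO-labelled wells, at an adjusted p under 0.05, under every alternative tool, scaling, count filter and left-out library, and 5 of the 10 were called under each tool, scaling and count filter. The fold limit moved the counts most. Without it, 8391 of all 14289 genes (58.7%) were called, and 10 of the 10 described. Of the lists, 12 of the eIF2 arm, 22 of the other ATF4 targets, 16 of folate one-carbon metabolism, 14 tRNA synthetases and 13 of the XBP1 and ATF6 arm were called. At a 2-fold limit there were 1456 of all 14289 genes, 1 of the 10 (Trib3), 7 of 30 other ATF4 targets and 2 of 26 of folate one-carbon metabolism. In the eIF2 arm, the tRNA synthetases and the XBP1 and ATF6 arm there were 0. With 1 library left out in turn, 3 to 5 of the 10 were called, beside 2501 to 2618 of all genes. The count was 3 both without WT-labelled replicate 2 and without WT-labelled replicate 3, as Asns and Shmt2 then fell under 1.5-fold. Upper-quartile scaling moved the median of all genes to 0.0588 on the log2 scale, the largest shift among the scalings tried. No paired analysis was possible because the labels give no replicate numbers shared between the groups. Genes with few counts, such as Gdf15 and Gldc, are limited by depth.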

Other observations

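The genes whose profile over the 6 libraries lay nearest to that of Atf4, among 9199 genes with a mean of at least 10 CPM, were Lhfp, Tsr1 and Gars, at Euclidean distances of 0.0197, 0.0209 and 0.0347 between centred log2 CPM values. Phgdh came next at 0.0387, the nearest of the other 9 genes described. Nearest to Trib3 were Slc7a5 (0.123), Mcm5 (0.158) and Foxm1 (0.164), with Chac1 at rank 5 (0.233). The 6 libraries share 2 groups, and a profile of this kind mostly repeats the difference between them. Gars encodes the glycyl-tRNA synthetase, and Mcm5 and Foxm1 are genes of dividing cells.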
